A study of Rattus norvegicus with 6 samples.

Results

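Ion exchangers, cotransporters and ion pumps were followed across the pineal gland and the ventricular structures of the adult rat brain. The genes were taken by name, as every gene with a single annotated symbol in 13 families: the bicarbonate transporters (Slc4a), sodium/calcium exchangers (Slc8a and the potassium-dependent Slc24a), sodium/proton exchangers (Slc9a), cation chloride cotransporters (Slc12a), phosphate cotransporters (Slc20a and Slc34a), anion exchangers (Slc26a), the sodium pump (Atp1a and Atp1b), the calcium pumps (Atp2a and Atp2b) and the vacuolar proton pump (Atp6v). This gave 73 genes of 12167 with a measured probe, each represented by its brightest probe by the mean over all arrays. All samples came from adult male Sprague-Dawley rats described only as normal. The 6 arrays held the pineal gland (2 arrays), the subcommissural organ, the subfornical organ, the third ventricle ependyma and a total brain sample (1 array each). The subcommissural organ, subfornical organ and ependyma samples were each a pool of 2, total brain was a pool used as the reference, and the labels state no treatment. The structures were cut out with a laser under the microscope, and the input of 3 ng total RNA went through 2 amplification rounds, per the labels.

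Pumps spend ATP to build ion gradients, and exchangers and cotransporters spend those gradients to move other ions. The sodium pump keeps sodium low and potassium high inside the cell. Calcium pumps clear calcium from the cytoplasm, out of the cell or into the endoplasmic reticulum, and the sodium/calcium exchangers do so by letting sodium in. The vacuolar proton pump acidifies lysosomes, secretory granules and synaptic vesicles. Bicarbonate transporters and sodium/proton exchangers set the pH of the cell, and cation chloride cotransporters set its chloride and volume. In epithelia that face the cerebrospinal fluid these same proteins carry salt and water, and in neurons they restore the gradients used by signalling.

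Values are intensities on a linear scale in the authors' units, with array medians between 1.04 and 1.07. They describe each gene across the arrays and do not rank different genes. The 75th percentile of intensity ran from 4.90 to 7.93 and was highest for total brain. For each comparison a gene was taken as measured if its higher side reached 1.05, the median of all values. Where the lower side lay under 1.05, the fold is given against 1.05 and written as at least so many fold. The enzymes Asmt and Tph1, which define the pineal gland, stood at 80.4 and 72.4 and at 547 and 352 on its arrays, and at most at 0.747 and 1.91 elsewhere. Of 5 motile cilia genes, 4 were high in the ependyma and the subcommissural organ, such as Dynlrb2 at 574 and 490, while Foxj1 was below 1.05 on every array. The same 4 were also above total brain in the subfornical organ, where Dynlrb2 was at 157.5 against 13.75. The subcommissural marker Sspo was not analysed here, and no marker was set for the subfornical organ. In bulk tissue, fewer cells of a type and less RNA per cell cannot be told apart.

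Of the 73 genes, 39 reached 1.05 on all 6 arrays, 18 on some of them and 16 on none. Subunits of the proton pump were measured most completely, with 16 of 21 at or above 1.05 on every array. The bicarbonate transporters had 4 of 11, the sodium/proton exchangers 1 of 6 and the anion exchangers 0 of 6. The 16 genes under 1.05 on every array were Atp1b4, Atp2b4, Atp6v0d2, Atp6v1b1, Atp6v1g3, Slc8a2, Slc9a3, Slc9a4, Slc9a5, Slc4a7, Slc4a8, Slc4a9, Slc34a1, Slc34a2, Slc26a4 and Slc26a5. Some of these encode transporters best known from kidney, gut or inner ear, such as Atp6v1b1, Slc9a3, Slc34a1 and Slc26a4, but others do not. Among the others, Slc8a2, Slc4a8 and Slc9a5 were at 0.568, 0.404 and 0.269 in total brain. Whether low values came from the genes or from their probes was not tested.

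The pineal gland was compared with total brain and with ependyma by limma over all genes measured. The fit had 1 residual degree of freedom, given by the pineal gland pair, and single arrays were taken to vary as much as that pair. Since no label states that the pair are separate animals, p-values reflect the spread of the pair alone, pooled over genes and possibly a technical one. A gene's own difference between the pair had no weight, so very small p-values rest on this shared spread. The standard error was 0.73 on the log2 scale for every gene against total brain and 0.72 against ependyma, so a call at an adjusted p under 0.05 was in effect a minimum size of 1.83 and 1.85. All other comparisons had 1 array on each side, and differences past 4-fold are counted there without a test. These counts used values with a floor at 0.142, so they include genes whose lower side lay under 1.05. The counts with every lower value raised to 1.05, an alternative chosen after seeing the data, stand beside them.

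Against total brain, 4 of 51 measured transporter genes rose in the pineal gland and 14 fell by limma, where 7.72% of all genes rose and 16.3% fell. In the subcommissural organ 2 of 50 were past 4-fold higher and 16 past 4-fold lower than total brain, against 8.76% and 14.9% of all genes. In the subfornical organ 3 of 53 were higher and 13 lower, against 7.23% and 9.76%. In the ependyma 1 of 52 was higher and 14 lower, against 7.47% and 9.51%. With lower values raised to 1.05 the counts were 1 and 13 in the subcommissural organ (all genes 6.21% and 11.4%), 2 and 11 in the subfornical organ (4.25% and 7.22%), and 1 and 10 in the ependyma (4.72% and 6.63%). Atp2b3 and Slc9a2 left the lower counts in all 3, Slc9a9 in the subcommissural organ and ependyma, and Slc20a2 in the ependyma. Slc4a1 left the higher count of the subcommissural organ and Slc26a2 that of the subfornical organ. The share of transporter genes that were lower was thus 27.5%, 32.0%, 24.5% and 26.9% in these comparisons, above the background in each, and the share that were higher was close to it or under it. The median log2 difference of the transporter genes was -0.47, -1.09, -0.55 and -0.96, beside -0.45, -0.29, -0.20 and -0.41 for all genes measured. These 4 comparisons share the total brain array.

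After quantile normalization the median of all genes moved to 0.03 (pineal gland), 0.0076 (subcommissural organ), 0.06 (subfornical organ) and -0.06 (ependyma). The share of all genes called higher and lower in the pineal gland became 6.36% and 7.09%, for the subcommissural organ 10.1% and 12.4%, for the subfornical organ 8.03% and 8.09%, and for the ependyma 8.70% and 6.81%. The transporter genes that were lower then made up 11.8%, 32.0%, 22.2% and 13.5%.

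Markers of other cells also differed between the arrays. The summed level of the 6 neuron markers with a probe was 918 in total brain and 61.2 to 164 on the dissected arrays. Of the pineal gland sums of 104 and 61.2, Slc17a6 made up 94.1 and 53.5. The sum of 6 oligodendrocyte markers was 1255 in total brain and 1317 in the subfornical organ, 253 in the ependyma, 195 in the subcommissural organ and 33.6 and 56.0 in the pineal gland. Among neuron markers, Nefl was at 38.6 in total brain and between 1.15 and 5.83 elsewhere, whereas Snap25 was under 1.05 on every array. The 6 astrocyte markers summed to 849 in the subfornical organ, 571 in the ependyma, 454 in total brain, 134 in the subcommissural organ and 51.6 to 110.0 in the pineal gland, where Gja1 made up 39.1 and 88.1. The 6 choroid plexus markers summed to 411.5 in the subcommissural organ, 311 in the ependyma and 157 in total brain. Their sums were 229 and 230 in the pineal gland and 61.4 in the subfornical organ. Calml4 made up 319 and 225 in the subcommissural organ and ependyma, whereas Ttr was at 1.61 and 4.97 there and 116 in total brain. The summed level of 6 microglia and macrophage markers ran from 81.2 in the subcommissural organ to 699.5 in the subfornical organ. The part of these cell types in the differences below was not tested.

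**Figure D1:**
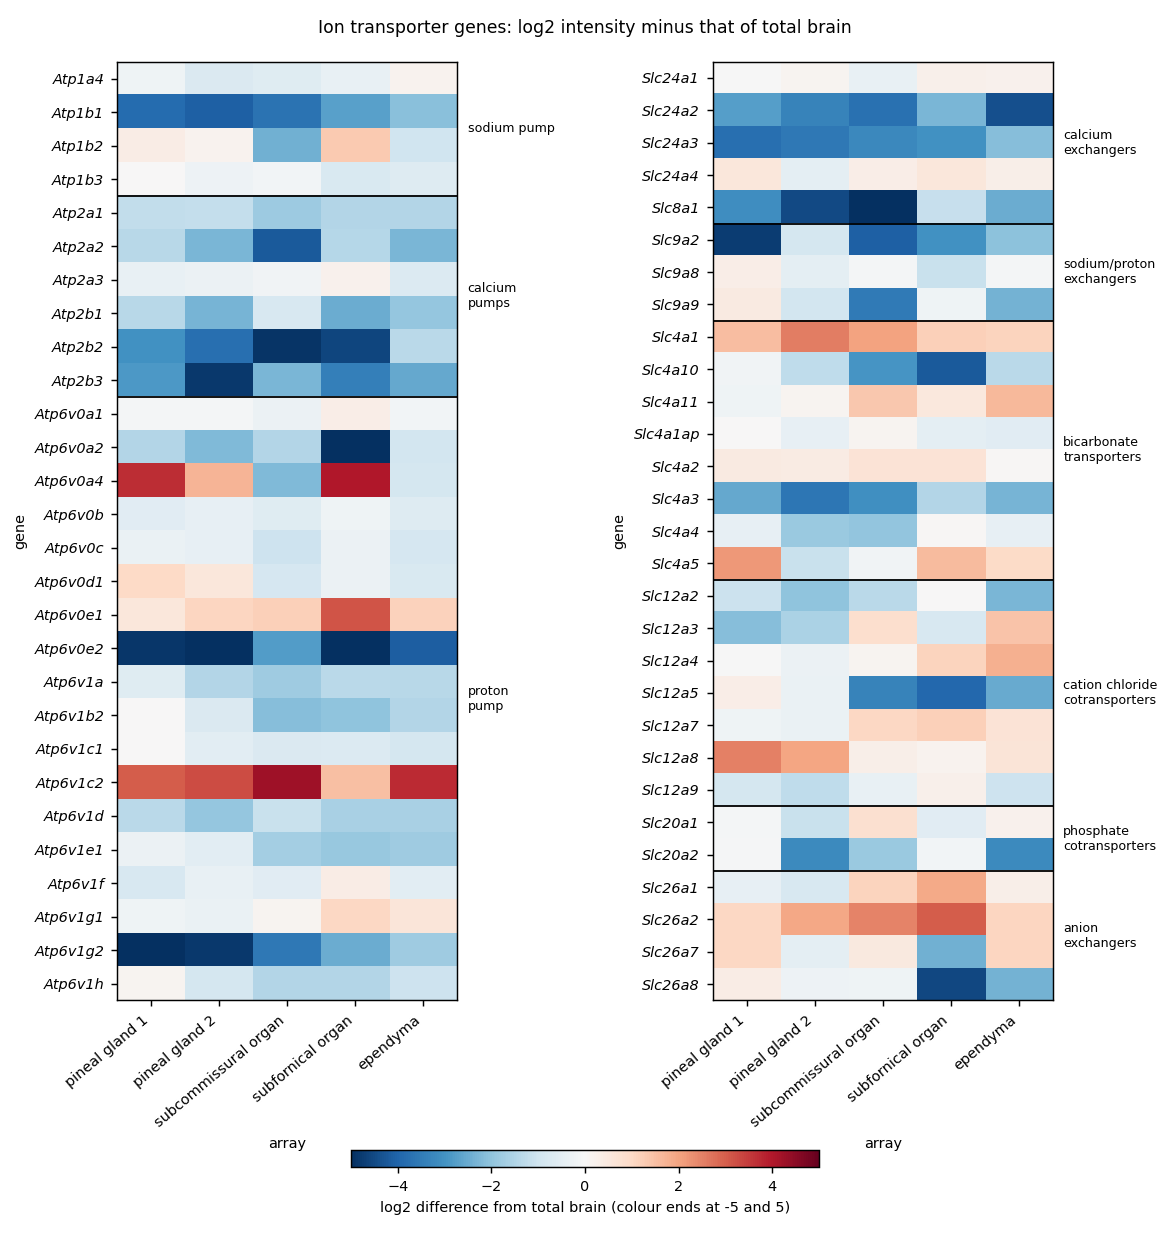
Heat map of the log2 intensity of each transporter gene on the 5 arrays of dissected structures minus its log2 intensity in total brain, for the genes that reached 1.05 on any array, grouped by role. Blue is lower and red higher than total brain. Rows such as Atp1b1, Atp6v0e2, Slc24a2 and Slc24a3 are blue throughout, Atp6v1c2 is red throughout, and Slc12a5 is pale in the pineal gland and blue on the other arrays.

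Called by limma in the pineal gland and past 4-fold lower than total brain in the other 3 structures were 6 genes, Atp1b1, Atp2b3, Atp6v0e2, Slc24a2, Slc24a3 and Slc9a2. For Atp2b3 and Slc9a2 the structures were under 1.05 but for 1 pineal gland array of Slc9a2, so these falls are bounded at 3.84-fold and 3.61-fold. Another 6 were lower in 3 of the structures: Atp2a2, Atp2b2, Atp6v1g2, Slc12a5, Slc4a3 and Slc8a1. No gene was called higher in all 4, and Atp6v1c2 was higher in 3. By the stricter measure of lying past 4-fold above every other tissue, 5 of 57 transporter genes marked total brain, namely Atp1b1, Atp2b3, Atp6v0e2, Slc24a2 and Slc24a3. With lower values raised to 1.05, Atp2b3 dropped out and 4 stayed. Over all 9992 genes measured on any array, 4.5% marked a tissue. Total brain was marked by 1.58% of them, the pineal gland by 1.03%, the subfornical organ by 0.761%, the subcommissural organ by 0.600% and the ependyma by 0.530%. For the last 4 tissues the count of 0 transporter genes is near those shares.

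The proton pump has a cytoplasmic sector (V1), which splits ATP, and a membrane sector (V0), through which protons pass. Most subunits are made in every cell, and some have isoforms of restricted use. Of 18 measured subunit genes, 2 rose in the pineal gland against total brain, 3 fell and 13 did not pass. Atp6v1c2 and Atp6v0a4 rose, and Atp6v0e2, Atp6v1g2 and Atp6v0a2 fell. After quantile normalization Atp6v0a4 and Atp6v0a2 did not pass (adjusted p = 0.11 and 0.15 by limma). The subcommissural organ had 1 subunit higher and 3 lower of 17, the subfornical organ 2 and 3 of 18, and the ependyma 1 and 1 of 17. The shares of all genes higher and lower were 7.72% and 16.3% in the pineal gland and 8.76% and 14.9% in the subcommissural organ. They were 7.23% and 9.76% in the subfornical organ and 7.47% and 9.51% in the ependyma. The pineal gland counts are near those shares.

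The stretch of 250 bases before the start is shown for 3 of these isoform genes, picked for their differences between tissues. Sequences are from RefSeq on the rat build GRCr8 and run 5′ to 3′ on the strand of the gene. Atp6v1c2 (higher outside total brain) lies at chr6:45848748-45848997, minus strand, Atp6v0a4 (high in the pineal gland and subfornical organ) at chr4:67809093-67809342, minus strand, and Atp6v1g2 (high in total brain) at chr20:3594588-3594837, minus strand.
Atp6v1c2: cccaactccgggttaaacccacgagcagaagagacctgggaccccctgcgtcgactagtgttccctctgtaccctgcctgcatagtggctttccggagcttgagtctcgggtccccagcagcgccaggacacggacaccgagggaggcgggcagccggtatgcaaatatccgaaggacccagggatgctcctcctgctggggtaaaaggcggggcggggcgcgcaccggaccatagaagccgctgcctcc
Atp6v0a4: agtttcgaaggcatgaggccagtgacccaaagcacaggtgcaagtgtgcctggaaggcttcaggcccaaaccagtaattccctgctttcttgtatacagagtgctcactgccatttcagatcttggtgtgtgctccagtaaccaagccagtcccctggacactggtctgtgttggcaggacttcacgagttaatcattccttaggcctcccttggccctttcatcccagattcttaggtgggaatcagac
Atp6v1g2: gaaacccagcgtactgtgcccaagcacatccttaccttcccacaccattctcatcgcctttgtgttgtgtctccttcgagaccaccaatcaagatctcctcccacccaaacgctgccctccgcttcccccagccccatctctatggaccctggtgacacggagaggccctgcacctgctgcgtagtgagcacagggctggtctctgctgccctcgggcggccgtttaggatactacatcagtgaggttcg
The GC content of these stretches was 64.8%, 51.6% and 58.8%. All 3 are in lower case because none of the motifs searched was found in them. The motifs, read on both strands, were the E-box CACGTG, the Otx/Crx letters TAATCC and the RFX letters GTTGCC, which are only part of an RFX site. They stood in 5.79%, 6.33% and 9.90% of 27457 promoter stretches of the same length, and in 7, 3 and 7 of the 60 transporter genes matched by symbol. Within the proton pump, Atp6v0d1 held the E-box and Atp6v1d the RFX letters. A match or its lack is a description of these letters only.

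Atp6v1c2, an isoform of the C subunit that links the sectors of the pump, was at 10.8 and 12.6 in the pineal gland, 24.97 in the subcommissural organ, 3.77 in the subfornical organ, 17.6 in the ependyma and 1.32 in total brain. Every dissected array lay above total brain. The rise in the pineal gland was 8.83-fold (log2 difference 3.14 ± 0.73 SE, n = 2 against 1, adjusted p = 0.00015 by limma). The level was 18.9-fold above total brain in the subcommissural organ and 13.3-fold in the ependyma, while the subfornical organ stayed within 4-fold of total brain and was 4.66-fold under the ependyma.

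Atp6v0a4, the isoform of the proton channel's large subunit best known from acid-secreting kidney cells, was at 13.4 and 3.40 in the pineal gland, 0.224 in the subcommissural organ, 16.6 in the subfornical organ, 0.568 in the ependyma and 1.05 in total brain. The pineal gland and subfornical organ thus stood high, and the pineal gland arrays lay 3.92-fold apart. It was at least 6.42-fold higher in the pineal gland than in total brain by limma (log2 difference 2.69, adjusted p = 0.0016) and than in the ependyma (3.57, adjusted p = 1.2e-05). With only the second pineal gland array the difference from total brain was 1.70, and with only the first it was 3.67. In the subfornical organ it was at least 15.8-fold above both total brain and the ependyma. Its partner isoform Atp6v1b1, which assembles with it in kidney, was between 0.293 and 0.709 on all arrays.

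Atp6v1g2, the G subunit isoform of neurons, was at 2.55 and 3.57 in the pineal gland, 8.62 in the subcommissural organ, 18.4 in the subfornical organ, 29.8 in the ependyma and 102 in total brain. The fall in the pineal gland was 33.7-fold (log2 difference -5.08 ± 0.73 SE, adjusted p = 1.1e-10 by limma), the largest of any transporter gene in that comparison. A second probe had -2.96. Atp6v1g1, the isoform found in every cell, was between 54.1 and 139 over the 6 arrays, with total brain at 68.2, so the neuronal isoform varied and the common one stayed within 4-fold.

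Atp6v0e2, an isoform of the smallest membrane subunit, was at 2.60 and 2.32 in the pineal gland, 10.8 in the subcommissural organ, 1.14 in the subfornical organ, 4.34 in the ependyma and 75.1 in total brain. The total brain array stood above all others, by 30.6-fold against the pineal gland (adjusted p = 3.9e-10 by limma) and by 66.0-fold against the subfornical organ. Its counterpart Atp6v0e1 ran the other way in the subfornical organ, at 24.3 against 2.76 in total brain, 8.78-fold higher, with 4.06 and 5.86 in the pineal gland, 6.34 in the subcommissural organ and 6.07 in the ependyma.

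Atp6v0a2, an isoform of Golgi and endosome membranes, was at 5.004 and 2.99 in the pineal gland, 5.02 in the subcommissural organ, 7.38 in the ependyma and 13.97 in total brain. On the subfornical organ array its value was -0.0281, which was raised to the floor of 0.142, at least 13.3-fold under total brain and at least 7.02-fold under the ependyma. Its fall in the pineal gland passed narrowly (log2 difference -1.85, adjusted p = 0.046 by limma), and with only the first array it was -1.48.

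Shared subunits were bright on every array. Atp6v0c, which forms the rotor of the membrane sector, was between 168 and 347. Atp6v0d1 was at 417 and 312 in the pineal gland, 119 in the subcommissural organ, 172 in the subfornical organ, 124 in the ependyma and 211 in total brain, highest in the pineal gland but not past the test (adjusted p = 0.51 against total brain and 0.12 against ependyma by limma). Atp6v1b2, the brain form of the ATP-binding B subunit, was at 391 and 234 in the pineal gland and 387 in total brain, and at 87.9 in the subcommissural organ, 97.1 in the subfornical organ and 139 in the ependyma. The subcommissural organ was 4.41-fold under total brain for this gene. Atp6v1e1, a stalk subunit, was also higher in the pineal gland and total brain than elsewhere, with 232 and 198 in the pineal gland, 283 in total brain and 75.9 to 86.1 in the other structures, all of those within 4-fold of total brain. Of the 6 accessory genes of the pump, 0 rose and 2 fell of 5 measured in the pineal gland against total brain. All genes gave 7.72% and 16.3%.

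**Figure D2:**
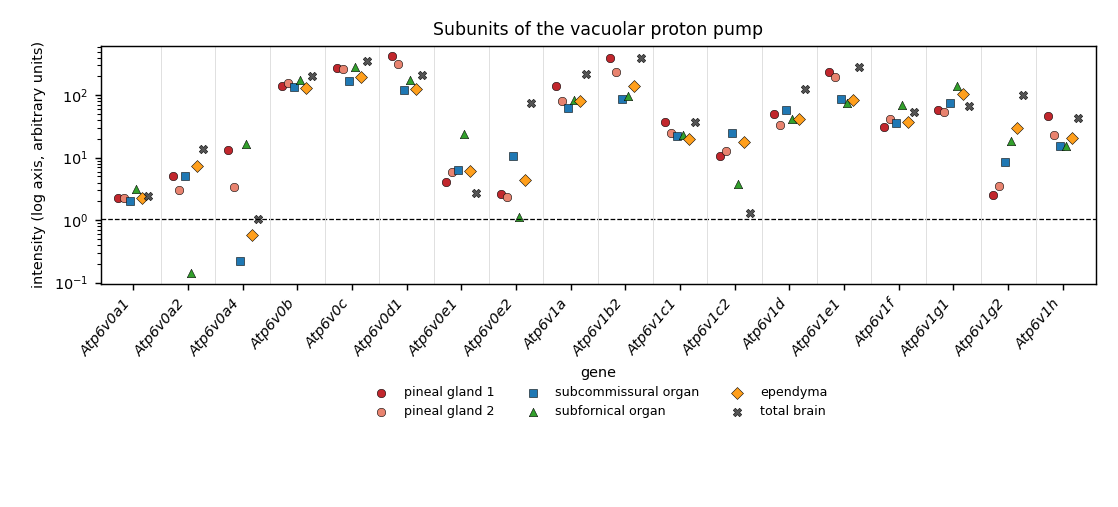
Intensity of the proton pump subunits on each of the 6 arrays, on a log axis, for the subunits that reached 1.05 (dashed line) on any array. Points are single arrays, and the pineal gland has 2. The isoforms Atp6v0a4, Atp6v0e2, Atp6v1c2 and Atp6v1g2 spread widely between tissues, while Atp6v0b and Atp6v0c stay between 132 and 347.

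The sodium pump needs a beta subunit to fold and reach the membrane, and the beta isoforms differed between tissues. Atp1b1, the common beta subunit, was at 37.5 and 31.8 in the pineal gland, 42.4 in the subcommissural organ, 81.7 in the subfornical organ, 128 in the ependyma and 541 in total brain. All dissected arrays lay below total brain, and the pineal gland pair was lowest. The fall in the pineal gland was 15.7-fold against total brain (log2 difference -3.97, adjusted p = 8.1e-07 by limma) and 3.72-fold against ependyma (-1.90, adjusted p = 0.043, and -1.78 with only the first array).

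Atp1b2, the beta subunit of astrocytes and other glia, was at 72.9 and 64.9 in the pineal gland, 10.6 in the subcommissural organ, 139 in the subfornical organ, 28.6 in the ependyma and 56.9 in total brain. The subcommissural organ was lowest, 5.35-fold under total brain, and the subfornical organ was 4.85-fold above the ependyma. In the pineal gland the gene did not pass against total brain (log2 difference 0.27 ± 0.73 SE, adjusted p = 0.85 by limma). Atp1b3 stayed between 1.35 and 2.37 on all arrays. The testis alpha subunit Atp1a4 was between 0.776 and 1.45.

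The Fxyd genes encode small partners that tune the sodium pump. Of 4 measured, 1 fell and 0 rose in the pineal gland against total brain, where 16.3% of all genes fell and 7.72% rose. Fxyd6 was at 7.64 and 5.17 in the pineal gland, 280 in the subcommissural organ, 40.5 in the subfornical organ, 65.7 in the ependyma and 170 in total brain. Its log2 fall in the pineal gland was -4.76 (adjusted p = 1.8e-09 by limma). Fxyd1, or phospholemman, was at 591 in the subfornical organ and 20.4 in the subcommissural organ, against 201 in total brain, 198 in the ependyma and 95.3 and 128 in the pineal gland.

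Of 6 calcium pump genes measured, 4 fell in the pineal gland and 0 rose, 3 were past 4-fold lower in the subcommissural organ and in the subfornical organ, and 2 in the ependyma. The shares of all genes lower were 16.3%, 14.9%, 9.76% and 9.51%. After quantile normalization Atp2a2, Atp2b1 and Atp2b3 did not pass in the pineal gland (adjusted p = 0.15, 0.12 and 0.088 by limma). Atp2b2, a plasma membrane pump of neurons and hair cells, was at 16.7 and 9.95 in the pineal gland, 4.54 in the subcommissural organ, 5.53 in the subfornical organ, 53.2 in the ependyma and 135 in total brain. The ependyma was nearest to total brain. The fall in the pineal gland was 10.5-fold against total brain (log2 difference -3.39, adjusted p = 3.7e-05 by limma) and 4.13-fold against ependyma (-2.05, adjusted p = 0.025, and -1.67 with only the first array). Against the ependyma the subcommissural organ was 11.7-fold and the subfornical organ 9.63-fold lower.

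Atp2b1, the widespread plasma membrane pump, was at 74.4 and 38.3 in the pineal gland, 109.7 in the subcommissural organ, 34.0 in the subfornical organ, 50.5 in the ependyma and 192 in total brain. It fell 3.60-fold in the pineal gland (adjusted p = 0.047 by limma, log2 difference -1.37 with only the first array) and was 5.66-fold lower in the subfornical organ. Atp2b3, a pump of neurons, was at 4.03 in total brain, 0.554 and 0 in the pineal gland, 0.829 in the subcommissural organ, 0.374 in the subfornical organ and 0.680 in the ependyma. Only total brain stood above 1.05, and the gene was at least 3.84-fold lower in each structure. Atp2a2, which fills the endoplasmic reticulum, was at 37.2 and 19.7 in the pineal gland, 5.27 in the subcommissural organ, 36.3 in the subfornical organ, 19.9 in the ependyma and 96.6 in total brain. It was 18.3-fold under total brain in the subcommissural organ, a secretory gland, and 3.57-fold in the pineal gland (adjusted p = 0.048 by limma, log2 difference -1.38 with only the first array). Its dim second probe had 0.35 in the subcommissural organ. Atp2a1, the muscle form, was between 2.80 and 9.88, and Atp2a3 between 3.00 and 5.59, with total brain highest for the former.

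Of 4 measured regulators of the calcium pumps, 0 rose and 2 fell in the pineal gland against total brain (all genes 7.72% and 16.3%). Pln, which restrains the endoplasmic reticulum pump, fell in the pineal gland (log2 difference -3.90, adjusted p = 1.4e-06 by limma), at 0.292 and 1.21 against 8.85. The size of this fall rests in part on the first array, which was under 1.05. Calm3, a calmodulin gene, was at 158 in the ependyma and 124 in the subcommissural organ, against 33.7 in total brain, 62.1 in the subfornical organ and 21.3 and 25.3 in the pineal gland.

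**Figure D3:**
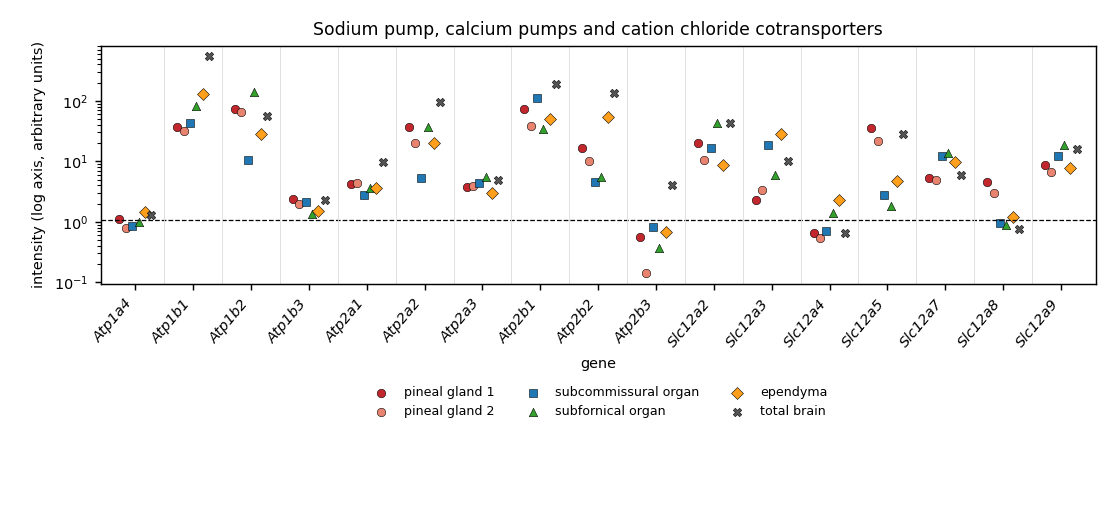
Intensity of sodium pump, calcium pump and cation chloride cotransporter genes on each of the 6 arrays, on a log axis, for genes that reached 1.05 (dashed line) on any array. Points are single arrays. Total brain is the highest array for Atp1b1 at 541 and Atp2b2 at 135, and Slc12a5 is high in the pineal gland and total brain and 4.81 or lower elsewhere.

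Calcium exchangers fell for 3 of 5 measured genes in the pineal gland, and 3, 2 and 3 of 5 were past 4-fold lower in the subcommissural organ, subfornical organ and ependyma, with 0 higher. The shares of all genes lower were 16.3%, 14.9%, 9.76% and 9.51%. Slc24a2, the potassium-dependent exchanger of cones and neurons, was at 3.27 and 2.17 in the pineal gland, 1.70 in the subcommissural organ, 4.56 in the subfornical organ, 1.07 in the ependyma and 22.2 in total brain. The fall was 8.34-fold in the pineal gland (adjusted p = 0.00024 by limma). Slc24a3, an exchanger of the brain and smooth muscle, was at 5.83 and 6.66 in the pineal gland, 8.54 in the subcommissural organ, 9.60 in the subfornical organ, 17.9 in the ependyma and 79.1 in total brain. It fell 12.7-fold in the pineal gland (adjusted p = 6.5e-06 by limma), and its dim second probe had a log2 difference of 0.82. Slc8a1, the classical sodium/calcium exchanger, was at 2.72 and 1.03 in the pineal gland, 0.573 in the subcommissural organ, 10.4 in the subfornical organ, 4.19 in the ependyma and 23.5 in total brain. It fell 14.1-fold in the pineal gland (adjusted p = 2.4e-06 by limma) and was at least 22.3-fold lower in the subcommissural organ, and its other probes stayed under 1.05 on all arrays. Its pineal gland call was lost after quantile normalization (adjusted p = 0.058 by limma) and with the mean of all probes.

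Slc24a1 is the exchanger that clears calcium from the outer segment of retinal rods, and the pineal gland shares much of the rod machinery. Its brightest probe, the one used here, was between 2.46 and 3.78 on the 6 arrays and did not pass in the pineal gland (log2 difference 0.04, adjusted p = 0.98 by limma). A second probe was at 5.996 and 3.15 in the pineal gland, 0.526 in the subcommissural organ, 0.895 in the subfornical organ, 0.395 in the ependyma and 0.605 in total brain. On that probe both pineal gland arrays lay above all others. The remaining pair of probes stayed at or under 1.15. The probes of this gene therefore gave different patterns, and the files do not say which transcripts they read. Slc24a4 was between 1.84 and 3.78 on all arrays.

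**Figure D4:**
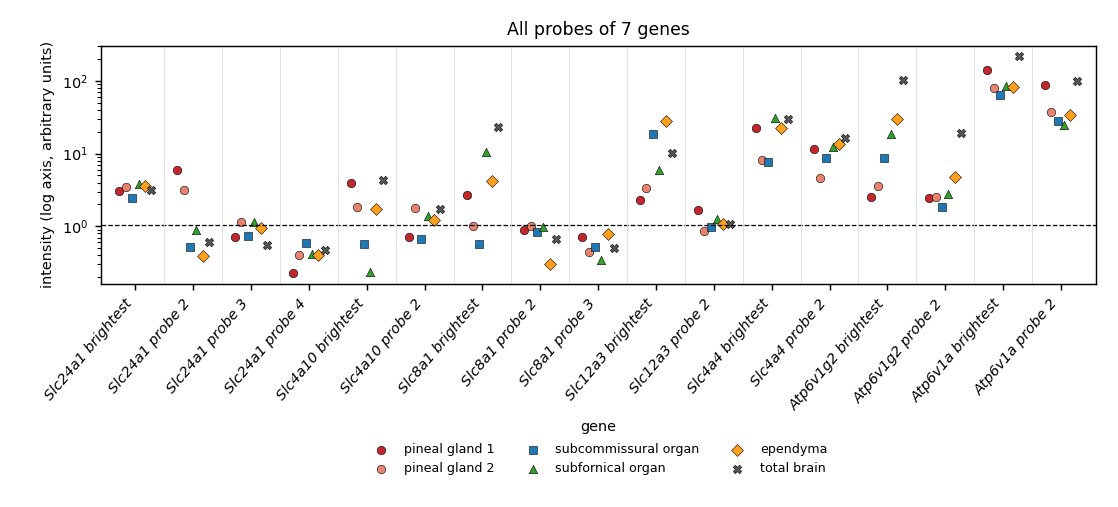
Intensity of every probe of 7 transporter genes on each of the 6 arrays, on a log axis, with the dashed line at 1.05 and points for single arrays. The second probe of Slc24a1 separates the pineal gland, at 5.996 and 3.15, from the rest, whereas its brightest probe is flat. Both probes of Atp6v1g2 and of Atp6v1a are highest in total brain, and the dimmer probes of Slc8a1 and Slc12a3 lie near or under the line.

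Of the bicarbonate transporters, 1 of 6 measured rose and 1 fell in the pineal gland against total brain (all genes 7.72% and 16.3%). Slc4a3, an anion exchanger of brain and heart, was at 6.30 and 2.98 in the pineal gland, 4.39 in the subcommissural organ, 13.3 in the subfornical organ, 7.30 in the ependyma and 36.9 in total brain. It fell 8.53-fold in the pineal gland (adjusted p = 0.0002 by limma) and was 8.42-fold lower in the subcommissural organ and 5.06-fold in the ependyma. Slc4a1, the anion exchanger of red blood cells, passed with low values, at 1.32 and 2.71 against 0.457 in total brain (at least 1.80-fold, adjusted p = 0.023 by limma). The subcommissural organ had 1.85. Both other probes of Slc4a1 lay lower in the pineal gland than in total brain, with log2 differences of -1.31 and -1.44.

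Slc4a10, a sodium-driven bicarbonate transporter of neurons and choroid plexus, was at 3.91 and 1.83 in the pineal gland, 0.568 in the subcommissural organ, 0.237 in the subfornical organ, 1.71 in the ependyma and 4.36 in total brain. The subcommissural and subfornical organs were each at least 4.15-fold under total brain. A second probe of Slc4a10 showed log2 differences of -1.38 and -0.35 there. Slc4a4, the sodium bicarbonate cotransporter of astrocytes, was at 22.6 and 8.14 in the pineal gland, 7.66 in the subcommissural organ, 31.3 in the subfornical organ, 22.4 in the ependyma and 29.8 in total brain, within 4-fold of total brain on each array. Slc4a2, a widespread anion exchanger that sits basolaterally in choroid plexus, was nearly flat, from 5.47 to 8.81. Slc4a5, a choroid plexus transporter, was under 1.05 on every array but the first of the pineal gland, at 1.39. Slc4a1ap, which carries the family's name but encodes an adaptor protein, was between 1.96 and 3.25. Slc4a11 was between 0.834 and 2.94, highest in the ependyma and the subcommissural organ.

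Carbonic anhydrase enzymes supply the bicarbonate and protons that these transporters carry. The genes were listed by name without regard to enzyme activity, and the list includes Car8, Car10 and Car11. Of 10 measured carbonic anhydrase genes, 2 rose and 5 fell in the pineal gland against total brain, 2 were higher and 6 lower in the subcommissural organ, 0 and 2 in the subfornical organ, and 1 and 4 in the ependyma. All genes gave 7.72% and 16.3%, 8.76% and 14.9%, 7.23% and 9.76%, and 7.47% and 9.51%. Car7, a cytoplasmic form of neurons, was at 0.437 and 1.80 in the pineal gland and 0.0356 in the subcommissural organ. It was at 0.644 in the subfornical organ, 3.52 in the ependyma and 39.8 in total brain. Its log2 difference in the pineal gland was -5.49 (adjusted p = 2.2e-12 by limma), with the first array under 1.05. Car4, a membrane form, was at 54.2 in total brain and between 1.95 and 10.9 elsewhere (-4.41, adjusted p = 3.0e-08 by limma). These were highest in total brain, whereas the next was highest in the pineal gland. Car3, a cytoplasmic form of muscle, was at 51.2 and 18.3 in the pineal gland, 11.8 in the subcommissural organ and at most 3.82 on the other arrays (log2 difference 3.46, adjusted p = 2.4e-05 by limma). Car9, a membrane form, was highest in the ependyma at 11.9 against 0.656 in total brain. Car14, another membrane form, was at 22.1 in the subfornical organ, 8.596 in total brain and at most 2.60 elsewhere.

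Sodium/proton exchangers were mostly dim. Slc9a2 was at 0.0717 and 2.08 in the pineal gland, 0.225 in the subcommissural organ, 0.463 in the subfornical organ, 0.926 in the ependyma and 3.80 in total brain. Its fall in the pineal gland (adjusted p = 0.0009 by limma) rests on the first array, since with only the second the log2 difference was -0.87. Slc9a9, an exchanger of endosomes, was at 5.50 and 2.13 in the pineal gland, 0.343 in the subcommissural organ, 3.46 in the subfornical organ, 0.789 in the ependyma and 4.02 in total brain. The subcommissural organ and the ependyma were low and the other tissues high. It rose in the pineal gland against ependyma, by at least 3.26-fold (adjusted p = 0.019 by limma, log2 difference 1.44 with only the second array). Slc9a8, an exchanger of the Golgi, was between 2.69 and 7.19 on all arrays.

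Of the cation chloride cotransporters, 1 of 6 measured rose and 1 fell in the pineal gland against total brain (all genes 7.72% and 16.3%). Against ependyma 1 of 7 rose and 2 fell (all genes 7.32% and 13%). Slc12a5, or KCC2, which lowers chloride in mature neurons so that GABA can inhibit them, was at 35.3 and 22.1 in the pineal gland, 2.77 in the subcommissural organ, 1.84 in the subfornical organ, 4.81 in the ependyma and 27.8 in total brain. The pineal gland and total brain were high and the other 3 arrays low. The pineal gland did not pass against total brain (log2 difference 0.0055 ± 0.73 SE, adjusted p = 0.997 by limma). Against ependyma the pineal gland was 5.80-fold higher (log2 difference 2.54 ± 0.72 SE, adjusted p = 0.0034 by limma). Total brain was 10.0-fold above the subcommissural organ, 15.1-fold above the subfornical organ and 5.78-fold above the ependyma.

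Slc12a2, or NKCC1, which loads chloride into immature neurons and secretory epithelia, was at 20.2 and 10.7 in the pineal gland, 16.8 in the subcommissural organ, 43.1 in the subfornical organ, 8.82 in the ependyma and 42.9 in total brain. The ependyma was lowest, 4.87-fold under total brain and 4.88-fold under the subfornical organ. The ependyma's difference from total brain was under 4-fold after quantile normalization.

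Slc12a3, the thiazide-sensitive sodium chloride cotransporter known from kidney, was at 2.33 and 3.40 in the pineal gland, 18.5 in the subcommissural organ, 5.88 in the subfornical organ, 27.8 in the ependyma and 10.3 in total brain. The ependyma and the subcommissural organ were highest. It was 9.86-fold lower in the pineal gland than in the ependyma (log2 difference -3.30, adjusted p = 6.1e-05 by limma) and 3.66-fold lower than in total brain (-1.87, adjusted p = 0.043, and -1.60 with only the second array). The second probe of Slc12a3 was between 0.870 and 1.65 and had log2 differences of 0.14 and 0.16 in these comparisons. The subfornical organ was 4.73-fold under the ependyma, with 0.21 on the second probe.

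Slc12a8, a family member of less settled function, was at 4.48 and 3.01 in the pineal gland and at most 1.21 on the other arrays. The pineal gland was at least 3.50-fold above total brain (log2 difference 2.25, adjusted p = 0.011 by limma, and 1.96 with only the second array). Slc12a4 (KCC1) was at 2.25 in the ependyma, 1.41 in the subfornical organ and 0.534 to 0.716 elsewhere, and was at least 2.15-fold lower in the pineal gland than in the ependyma (adjusted p = 0.038 by limma, -1.79 with only the first array). Slc12a7 (KCC4) was between 4.83 and 13.8, and Slc12a9 between 6.60 and 18.8, without a call in any comparison. Of 7 measured genes for the kinases that switch these cotransporters, 0 rose and 0 fell in the pineal gland in either comparison. All genes gave 7.72% and 16.3% against total brain, and 7.32% and 13% against ependyma.

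Phosphate cotransporters and anion exchangers gave few measured genes. Slc20a1, a widespread phosphate carrier, was between 2.88 and 10.7, highest in the subcommissural organ, with no call. Slc20a2 reached only 1.29, and its log2 difference of -3.18 in the ependyma against total brain is bounded at 1.23-fold. Slc26a8, an anion exchanger of sperm, was at 10.5 and 6.77 in the pineal gland, 7.03 in the subcommissural organ, 0.348 in the subfornical organ, 1.57 in the ependyma and 8.06 in total brain. It was 5.36-fold higher in the pineal gland than in the ependyma (log2 difference 2.42, adjusted p = 0.0057 by limma) and 4.48-fold higher in the subcommissural organ than in the ependyma. The second probe of Slc26a8 had 3.14 and 3.30 in these comparisons. That probe was dim, at 1.54 and 1.02 in the pineal gland, 1.40 in the subcommissural organ and 0.0958 in the ependyma. The ependyma value was raised to the floor, so the size of the differences on this probe is uncertain. Slc26a2, a sulphate carrier, was at 1.16 in the subfornical organ and under 1.05 elsewhere (at least 1.10-fold above total brain), and Slc26a7 was at most 1.59.

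Against the ependyma, 4 of 51 measured transporter genes rose in the pineal gland and 5 fell, where 7.32% of all genes rose and 13% fell. The shares of the transporter genes were 7.84% and 9.80%, near those of all genes. The subcommissural organ, itself a specialised ependyma, had 1 of 49 past 4-fold higher and 2 lower, against 5% and 7.89% of all genes. Those were Slc26a8, Atp2b2 and Slc8a1. With lower values raised to 1.05, Slc8a1 was bounded at 3.99-fold and left the count (1 and 1, all genes 2.91% and 4.88%). The subfornical organ had 6 of 53 higher and 7 lower, against 6.88% and 6.75%. With lower values raised to 1.05 it had 4 and 4, against 4.39% and 4.26%, since Slc20a2, Slc9a9, Slc26a7, Slc26a8 and Slc4a10 left. The counts were led by Atp6v0a4 upward and by Atp6v0a2 downward. These comparisons share the ependyma array.

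**Figure D5:**
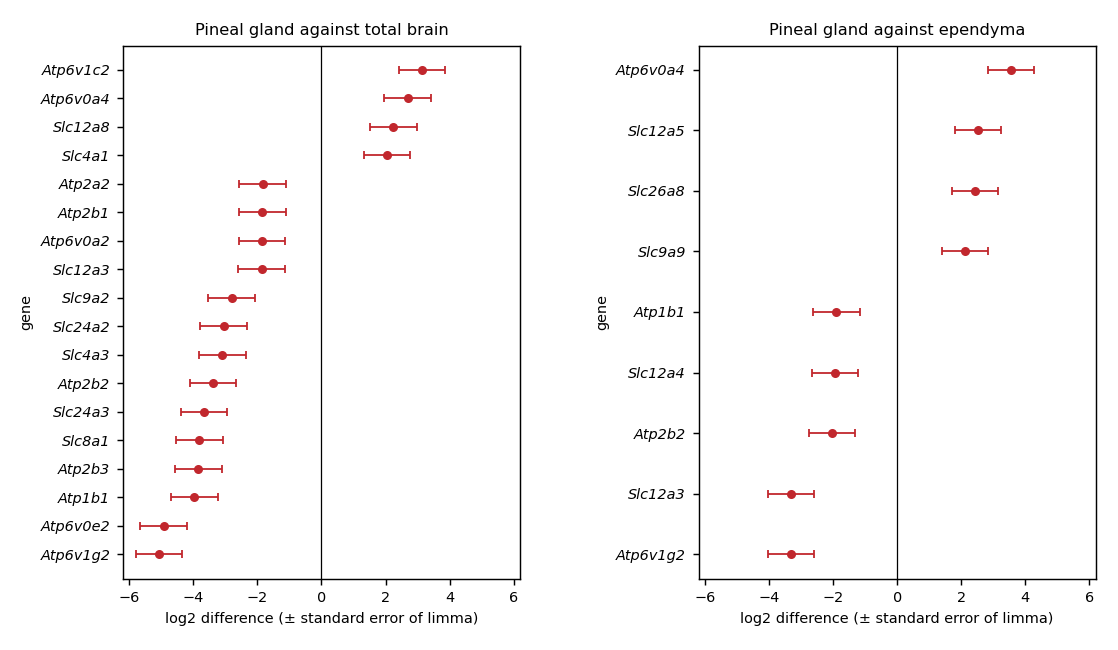
Log2 difference of the transporter genes called by limma in the pineal gland against total brain (18 genes, left) and against ependyma (9 genes, right), with bars for the standard error. The bars have one length within a panel because the moderated spread was the same for every gene. Atp6v1c2 is the highest on the left at 3.14 and Atp6v1g2 the lowest at -5.08.

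How firmly the calls against total brain stood differed by gene. Atp1b1, Atp2b2, Atp6v0e2, Atp6v1c2, Atp6v1g2 and Slc24a2 passed under every alternative that was tried except the higher floor, at which limma called 0 transporter genes (15 at an unadjusted p under 0.05, while 4-fold counting on the original floor gave 14). Slc4a1 passed under 1 alternative of 8. After quantile normalization 8 of the 18 calls remained, namely Atp1b1, Atp2b2, Atp6v0e2, Atp6v1c2, Atp6v1g2, Slc24a2, Slc12a8 and Slc24a3. Adjusted p by limma also rose for calls that remained, from 8.1e-07 to 0.020 for Atp1b1 and from 3.9e-10 to 0.016 for Atp6v0e2. The median log2 difference of all genes moved from -0.45 to 0.03. How far calls were lost through smaller differences or through the spread that limma used was not tested. Between the pineal gland arrays, 35 of 47 transporter genes whose mean log2 value reached that of 1.05 were higher on the first. The median log2 difference was 0.45, beside 0.42 for all genes selected in the same way. Of these 47 genes 10 were at least 2-fold apart and 0 at least 4-fold, beside 16.7% and 1.12% of all genes. Genes under that mean were left out, among them the called gene Slc9a2, at 0.0717 and 2.08.

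Genes outside the families that work with these transporters were followed as a group of 61, of which 50 had a probe. Against total brain, 3 of 37 measured rose and 10 fell in the pineal gland, 4 of 39 were higher and 11 lower in the subcommissural organ, 2 of 38 and 5 in the subfornical organ, and 4 of 39 and 9 in the ependyma. Over all genes the shares were 7.72% and 16.3%, 8.76% and 14.9%, 7.23% and 9.76%, and 7.47% and 9.51%. Atp12a, the proton/potassium pump outside the stomach, was at 13.8 in the subcommissural organ, 4.45 in the subfornical organ, 7.15 in the ependyma, 0.363 in total brain and 0.608 and 0.146 in the pineal gland. It fell in the pineal gland against ependyma (log2 difference -4.59, adjusted p = 6.4e-09 by limma). Both pineal gland values lay under 1.05, so the size of this fall is uncertain. The chloride channel Clcn2 was at 8.41 and 4.22 in the pineal gland against 1.60 in the ependyma (1.90, adjusted p = 0.043 by limma), 2.26 in the subcommissural organ, 6.34 in the subfornical organ and 3.50 in total brain.

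The start of Slc12a5, high in the pineal gland and total brain and low in the ventricular structures, is shown (chr3:174115583-174115832, plus strand, GRCr8, RefSeq). Its single match to the RFX letters, which 9.90% of all promoter stretches held, is in capitals, 234 bases before the start.
Slc12a5: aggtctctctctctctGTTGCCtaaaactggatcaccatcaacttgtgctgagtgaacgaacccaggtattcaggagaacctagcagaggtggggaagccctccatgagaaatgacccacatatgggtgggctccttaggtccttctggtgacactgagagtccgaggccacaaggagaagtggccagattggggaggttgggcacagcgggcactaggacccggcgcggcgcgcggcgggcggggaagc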

How the data were processed

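Gene expression was measured on 6 one-colour arrays. The authors deposited linear intensities, as judged from the values. The scanner, software, background correction and scaling are not given in the sources used here. A value of -9999 was taken as missing, which left 34963 of 35129 probes complete. Probes were named through the platform annotation, where 16865 had 1 symbol, 165 had several and 18099 were not listed. All 73 gene identifiers were found in the RefSeq table and no symbol differed.

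Lower values were set to 0.142 (the 5th percentile over all arrays) before log2, with no further scaling. The test was limma 3.58.1 (lmFit and eBayes, two-sided, Benjamini-Hochberg over all genes measured in the comparison). It fitted a mean per tissue over all 6 arrays. A run on simulated data gave every gene the same spread, as the fit does. That run therefore cannot show how the test behaves for tissues with a single array. The genes named are family members called in any comparison, a list of further members, and examples from lists of partner genes. The members and lists were chosen with earlier results of these data known. Alternatives were quantile normalization, a floor at the 25th percentile, no filter or one at the 75th percentile, the mean of all probes, an intensity trend and leaving out each pineal gland array. Detection limits are unknown, and the number of arrays limits the precision.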

Additional observations from a re-analysis of the deposited data

Results flagged for a closer look

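The second probe of Slc24a1, which the comparisons did not use because a brighter probe of the gene stood for it, was higher in the pineal gland than in total brain by 2.85 on the log2 scale. The brightest probe of this gene had 0.04. The difference between the probes was not tested.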

How the results depend on the processing

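Quantile normalization left 8 of the 18 transporter genes called in the pineal gland against total brain and 4 of the 9 against ependyma. In these comparisons 16 and 17 genes then had an unadjusted p under 0.05 by limma, beside 21 and 13 in the main fit. The same normalization left 8 of 15 genes at 4-fold in the ependyma against total brain, and 2 of the 5 that stood above every other tissue. With the floor at the 25th percentile limma called 0 in both pineal gland comparisons (15 and 13 at an unadjusted p under 0.05), and without a filter it called 8 and 2. The filter at the 75th percentile left 7 of 13 genes in the subfornical organ against ependyma, as did the mean of all probes, and a floor at the pooled median, added after seeing the data, left 8. With 1 pineal gland array, where a 4-fold difference was counted without a test, the count was 15 to 16 against total brain and 7 to 9 against ependyma, and 6 genes stood above every other tissue. All other counts were within 1.5 times the main one. No paired analysis was possible because only the pineal gland had more than 1 array.

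Of 52 called differences with another probe, that probe was on the same side in 28, and where it was measured in 12 of 19. Opposite log2 values against total brain were, in the pineal gland, 0.16 for Slc12a3, 0.82 for Slc24a3, -1.31 and -1.44 for Slc4a1, and 0.50 and 0.16 for Slc8a1. In the subcommissural organ they were 0.35 for Atp2a2, -1.92 and -0.40 for Slc4a1, 0.32 and 0.027 for Slc8a1, and 0.46 for Slc9a2. In the subfornical organ it was 0.088 for Slc26a8, and in the ependyma 0.51 and 0.037 for Slc20a2, 0.65 for Slc8a1 and 0.0084 for Slc9a9. Against the ependyma they were 0.14 for Slc12a3 in the pineal gland, 1.48 for Slc8a1 in the subcommissural organ, and in the subfornical organ 0.21 for Slc12a3, -0.79 and -1.68 for Slc20a2, 2.15 for Slc26a8 and 0.16 for Slc4a10. The cause was not tested.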
